A study of Homo sapiens with 12 samples.

Results

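The p53 target genes CDKN1A, MDM2, SESN1, ZMAT3, FDXR, RRM2B, TP53INP1, FAS and XPC, 9 of the 35579 genes measured, were compared in WM-266-4 melanoma cells with and without TYRO3. They were chosen by name, as genes known to be activated by the transcription factor p53, and by no threshold on a measured value. Earlier results of these data were known when the choice was made. The line was derived from a human melanoma, and the cells of all 12 libraries carried a stable lentiviral knock-down of TYRO3, a receptor tyrosine kinase. On this background the cells were transfected with the pEZY-myc-his plasmid encoding GFP (the control), wild-type TYRO3 (WT), TYRO3 ΔGS with the substitution I449A in the gamma-secretase cleavage site (dGS), or TYRO3 ΔADAM with the substitutions P408A, L409P and G419P at the predicted ADAM cleavage sites (dADAM). The cells were then starved of serum overnight. Polyadenylated RNA was sequenced in 3 experiments with 1 library of each group in each, which gives 4 groups of 3 libraries. The labels number the experiments and do not say whether the cultures were separate beyond that, so that p-values measure the spread between these samples, which may be technical. The study calls these control cells a vector control, whereas the labels name GFP as the insert.

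p53 is held at a low level in unstressed cells by the ubiquitin ligase MDM2, and after DNA damage, nucleolar stress or oncogene activity it accumulates and binds response elements in the DNA of its target genes. The targets stop the cell cycle, repair DNA, adjust metabolism or start cell death, and MDM2, itself a target, closes a negative feedback loop. In melanoma the pathway is often held down by loss of CDKN2A or by a high level of MDM2 or MDM4.

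The response element that p53 prefers is a pair of half-sites, each with a C, 2 bases and a G at its core. RefSeq promoters (GRCh38.p14), from 250 bases before to 50 bases after a start site, were scanned for a pair of adjacent half-sites of 10 bases each, named here only as the p53 consensus element. Promoters of 7 of the 9 genes were scanned, 16 in all, and those of TP53INP1 and RRM2B were not analysed here. The 4 sequences are shown because they belong to MDM2, which was called in no comparison, to CDKN1A, called over all TYRO3, to FAS, called with dGS TYRO3, and to SESN1, under the fold threshold throughout, and differ in how close they came to the consensus, and the capitals mark the 2 cores.
MDM2 (chr12:68808923-68808942, plus strand, before the downstream promoter): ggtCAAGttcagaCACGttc
FAS (chr10:88991309-88991328, plus strand): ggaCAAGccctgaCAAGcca
SESN1 (chr6:109009018-109009037, minus strand): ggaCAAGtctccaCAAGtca
CDKN1A (chr6:36678541-36678560, plus strand): tggCCTGctggaaCTCGgcc
The MDM2 and FAS sequences each had 2 mismatches to the 20 bases of the consensus, and 0.649% of the 35116 promoters scanned came as close. The MDM2 sequence lies in intron 1, 94 bases before the start site of the downstream promoter. In SESN1 the closest sequence had 3 mismatches, as few as in 5.2% of all promoters. In the CDKN1A window the closest sequence had 5 mismatches, and 70.5% of all promoters had as few. Other scanned windows of MDM2, FAS and SESN1 also had 5 mismatches at best. For those genes the closest of several windows is shown. DNA further from the start sites was not scanned, so that a window without a close match does not mean a gene without an element. The consensus is its own reverse complement, so that both strands were covered, and overlapping matches were counted once per promoter. A match is a likeness of letters and was not tested as a binding site.

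The level of a gene is given as CPM, the sum of the estimated counts of its transcripts scaled to library size by the TMM method and expressed per 1000000 counts. A gene was called when its fold change was over 1.5 and its p-value from the quasi-likelihood test of edgeR, adjusted by the Benjamini-Hochberg method over all 15098 genes tested, was at most 0.05. Estimated counts per library totalled 4008293 in the GFP library of experiment 1 and between 18365999 and 38184838 in the other 11. The first is therefore the least precise, with 25 counts for FAS and 68.0 for CDKN1A. TYRO3 itself was at 47.3 to 56.6 CPM in the GFP libraries and 1181 to 3694 CPM in the 9 TYRO3 libraries, as labelled. The TYRO3 libraries of experiment 1, at 3064 to 3694 CPM, were above those of experiments 2 and 3, at 1181 to 1791 CPM. All 9 genes passed the filter on low counts. The melanocyte genes SOX10 and PMEL had medians of 289.5 and 1008 TPM (transcripts per 1000000, a scale per length). The other melanocyte genes listed, MITF, DCT, MLANA and TYR, were lower, with medians of 97.4, 92.6, 19.2 and 9.42 TPM. Of 8 markers of epithelial, blood and endothelial cells, KRT5, KRT14, EPCAM, PTPRC, CD3E and CDH5 each had a median under 0.3 TPM and the endothelial PECAM1 one of 0.604 TPM. KRT18, a keratin of simple epithelia, was the exception, with a median of 183.2 TPM and a range of 111.8 to 222.0 TPM.

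With TYRO3, CDKN1A was higher and TP53INP1 lower than with GFP, and MDM2 differed by less than the spread between libraries. Comparing the mean of the 3 TYRO3 groups with GFP, 2 of the 9 genes were called, CDKN1A higher and TP53INP1 lower, where 5.68% of all genes tested were called. Against GFP, WT TYRO3 called 0 of the 9 genes, beside 2.35% of all genes. In that comparison 4 of the 9 had an unadjusted p under 0.05 in edgeR, as had 21.5% of all genes (3241), and DESeq2 called 1, CDKN1A, beside 4.04% of all genes (610). dGS TYRO3 called 2, TP53INP1 lower and FAS higher, beside 4.69% of all genes. dADAM TYRO3 called 1, TP53INP1 lower, beside 5.19%. The median log2 fold change of the 9 genes between all TYRO3 and GFP was 0.03, and that of all genes 0.00. The 3 comparisons share the same GFP libraries. In bulk RNA of this kind, fewer cells with a transcript and less transcript per cell cannot be told apart.

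**Figure D1:**
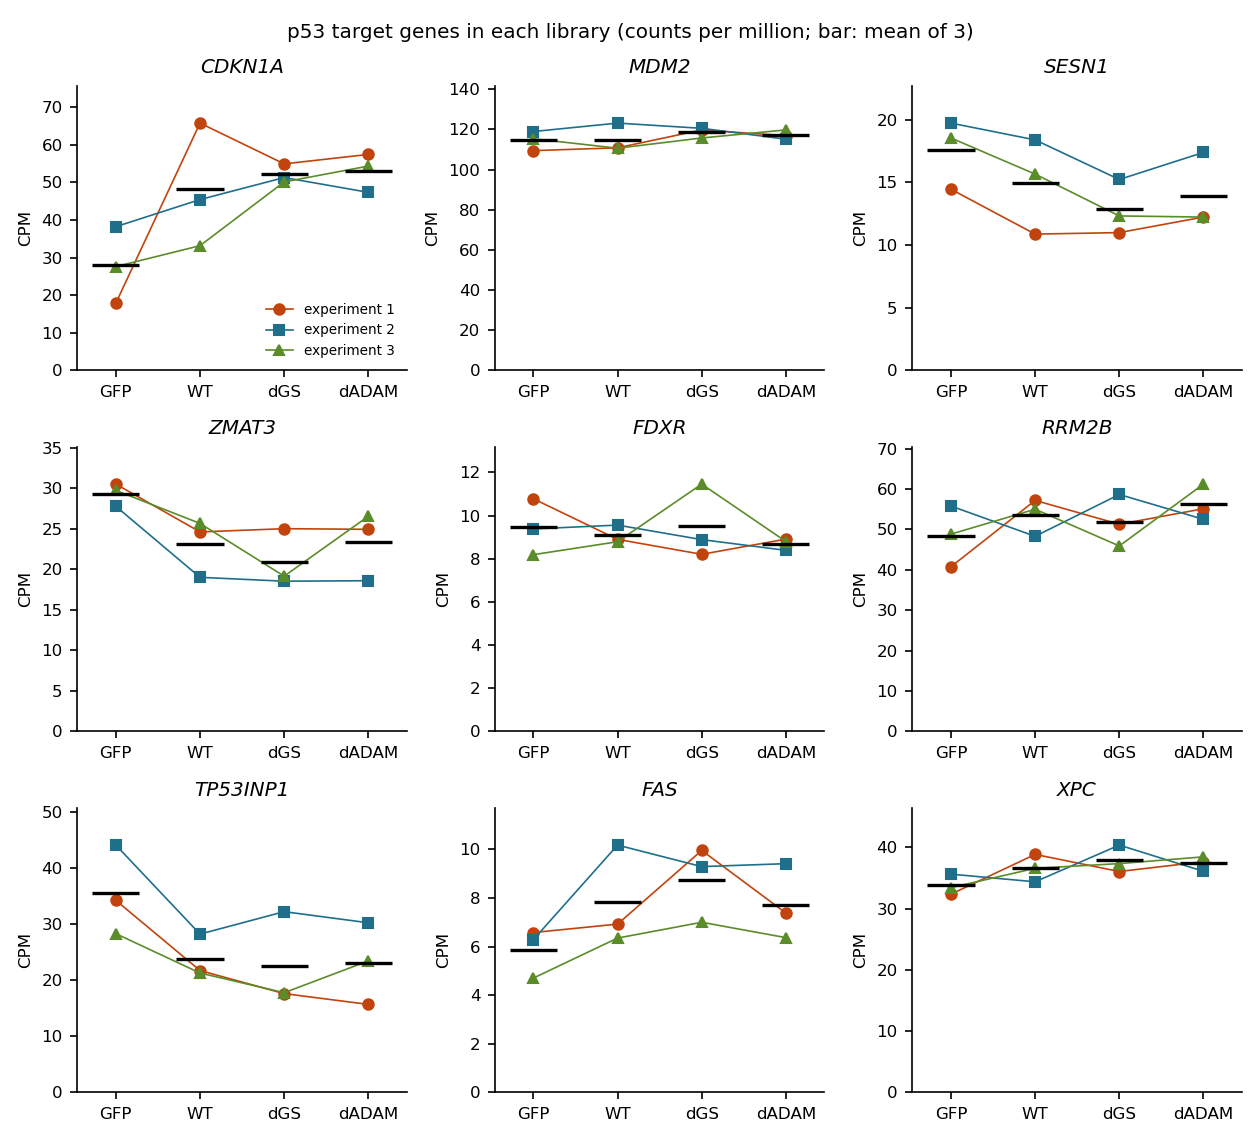
Level of each p53 target gene in CPM (vertical axis, from 0) in the 4 groups (horizontal axis), with 1 point per library, lines joining the libraries of an experiment and a black bar at the mean of 3 libraries. CDKN1A and FAS are lowest in the GFP library of every experiment, TP53INP1, ZMAT3 and SESN1 are highest there, and MDM2 stays between 109 and 123 CPM.

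The position of the GFP library within its experiment was recorded for each gene, since the experiments differed in level. The GFP library was the lowest of 4 in every experiment for 2 of the 9 genes (CDKN1A and FAS), a pattern that 12.7% of all genes showed. It was the highest of 4 in every experiment for 3 (SESN1, ZMAT3 and TP53INP1), as for 13.8% of all genes. MDM2, FDXR, RRM2B and XPC showed neither.

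CDKN1A encodes p21, the inhibitor of cyclin-dependent kinases through which p53 stops the cell cycle, and lies on chromosome 6 (GRCh38, 36676460 to 36687339, plus strand). Its GFP libraries were at 17.9, 38.2 and 27.6 CPM in experiments 1, 2 and 3. With WT TYRO3 they were at 65.8, 45.4 and 33.2 CPM, with dGS TYRO3 at 54.9, 51.3 and 50.1 CPM, and with dADAM TYRO3 at 57.4, 47.3 and 54.3 CPM. Every TYRO3 library was above the GFP library of its own experiment, but the WT library of experiment 3 was below the GFP library of experiment 2, so that the groups overlap across experiments. The mean rose from 27.9 ± 10.2 CPM (SD, n = 3) with GFP to 51.1 ± 9.01 CPM (SD, n = 9) with TYRO3, a log2 fold change of 0.77 (SE 0.21, adjusted p = 0.0305, edgeR). For the single constructs the log2 fold change was 0.66 with WT (adjusted p = 0.145), 0.80 with dGS (adjusted p = 0.0621) and 0.83 with dADAM TYRO3 (adjusted p = 0.0510), all from edgeR and none past the threshold.

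The difference in CDKN1A was uneven between experiments. The mean of the TYRO3 libraries was 3.32-fold the GFP library in experiment 1, 1.26-fold in experiment 2 and 1.66-fold in experiment 3. The first ratio rests on the GFP library with 68.0 CDKN1A counts, in which 38.7% of these counts were assigned to the main transcript CDKN1A-201 against 90.5% to 99.7% in the other 11 libraries. Without that library the log2 fold change was 0.52 (adjusted p = 0.105, edgeR) and CDKN1A was no longer called. It was also not called without the GFP library of experiment 3 (0.80, adjusted p = 0.107) or the dADAM library of experiment 3 (0.72, adjusted p = 0.0619). On TPM, CDKN1A was at 20.2 ± 8.93 (SD, n = 3) with GFP and 38.9 ± 7.31 (SD, n = 9) with TYRO3. The mean of TYRO3 itself was 63.0-, 31.3- and 24.7-fold the GFP library in experiments 1, 2 and 3. The study treated experiment 1 as a batch apart from the others and corrected for it. The part of the TYRO3 level or of the batch in the CDKN1A ratios was not tested.

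**Figure D2:**
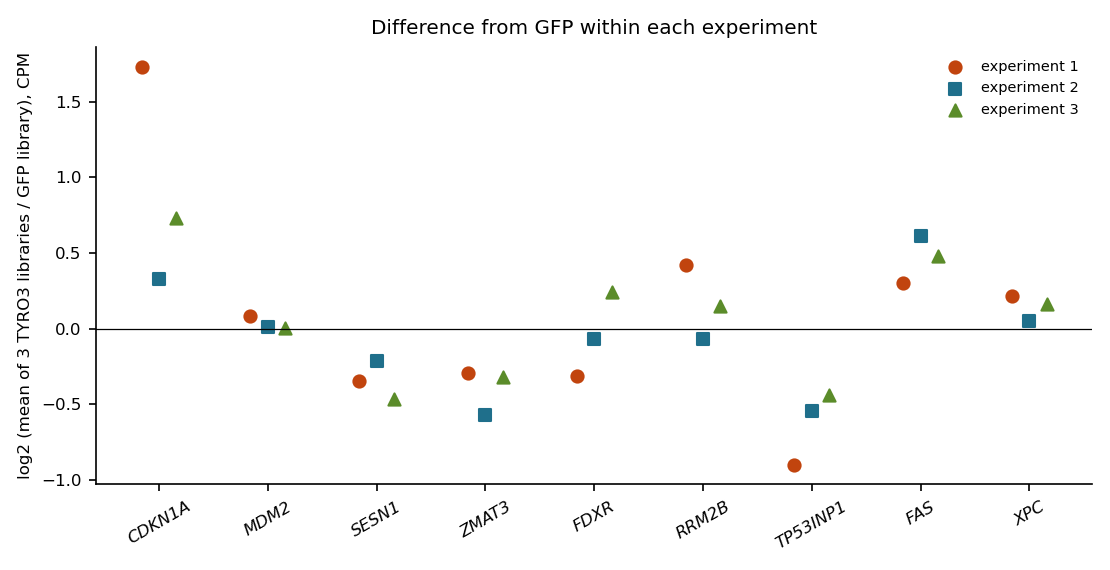
Log2 ratio (vertical axis) of the mean CPM of the 3 TYRO3 libraries to the GFP library, for each p53 target gene (horizontal axis), with 1 point per experiment. CDKN1A ranges from 0.33 in experiment 2 to 1.73 in experiment 1, the 3 points of TP53INP1 lie between -0.90 and -0.44, and those of MDM2 between 0.00 and 0.08.

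Other genes near p21 were set beside it. Among the 6 other inhibitors of cyclin-dependent kinases, CDKN2A, which encodes p16 and the MDM2 antagonist p14ARF from overlapping transcripts, rose from 3.21 ± 1.00 CPM (SD, n = 3) to 6.47 ± 1.74 CPM (SD, n = 9), a log2 fold change of 0.83 (SE 0.26, adjusted p = 0.0493, edgeR). CDKN2C, the gene of p18, had a log2 fold change of -0.52 (adjusted p = 0.0190, edgeR) in that comparison and was called lower with dADAM TYRO3 alone. The 30 genes that p21 represses through the DREAM complex, a repressor of cell cycle genes, had a median log2 fold change of -0.08. Of these 30, 0 were called over all TYRO3 by edgeR, where 5.68% of all genes tested were called. The thymidylate synthase gene TYMS stood at -0.32 (SE 0.07, adjusted p = 0.0131, edgeR) and the mitotic cyclin CCNB1 at -0.21 (SE 0.08, adjusted p = 0.0975, edgeR), both under the fold threshold. The summed level of all 30 genes was 2725 to 2909 TPM in the 3 GFP libraries and 2547 to 2941 TPM in the 9 TYRO3 libraries. The ranges overlapped.

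The 5 genes whose log2 CPM, centred within experiments, followed CDKN1A most closely over the 12 libraries were HOXA11, LIF, CDC42EP2, AC036214.3 and HKDC1, with Pearson's r between 0.99 and 1.00. The 12 points share the experiments and library depths, and r was computed over all genes tested, so that it is a description. Of the 5, LIF, a cytokine of the interleukin 6 family, had a log2 fold change of 0.71 between TYRO3 and GFP (SE 0.21, adjusted p = 0.0462, edgeR), and HKDC1, a hexokinase, of 1.16 (SE 0.34, adjusted p = 0.0396, edgeR). The homeobox gene HOXA11 was at 0.43 (adjusted p = 0.0596) and CDC42EP2, an effector of the GTPase CDC42, at 0.78 (adjusted p = 0.0575), neither past the threshold of edgeR's test. Within the 9 p53 targets, CDKN1A correlated most closely with XPC (r = 0.82) and ran opposite to SESN1 (r = -0.82) and TP53INP1 (r = -0.77).

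MDM2, the ubiquitin ligase that degrades p53, lies on chromosome 12 (68808176 to 68850686, plus strand) and was the most abundant of the 9 genes. The GFP libraries were at 109, 119 and 115 CPM in experiments 1, 2 and 3. With WT TYRO3 it was at 111, 123 and 111 CPM, with dGS TYRO3 at 119.7, 120.5 and 116 CPM, and with dADAM TYRO3 at 117, 115 and 119.7 CPM. The 12 values overlapped fully and spanned 109 to 123 CPM. The log2 fold change between all TYRO3 and GFP was 0.03 (SE 0.06, adjusted p = 0.799, edgeR), with a 95% confidence interval of -0.10 to 0.15, which leaves out a 1.5-fold change in either direction. Its mean was 114.5 ± 4.80 CPM (SD, n = 3) with GFP and 116.9 ± 4.31 CPM (SD, n = 9) with TYRO3.

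MDM2 has an upstream promoter, which starts exon 1 and is largely independent of p53, and a downstream promoter in intron 1, on which p53 acts and before which the MDM2 sequence above lies. Of the 34 MDM2 transcripts, 7 start in exon 1 (from 68808176 to 68808491) and 22 between 68809002 and 68809292. Of the latter, 17 start within exon 2, 15 of them at the start codon itself (68809212), which gives the coding sequence and not a true start. The downstream share was the percentage of estimated counts of both classes that fell to the 22 transcripts. In the GFP libraries it was 25.8%, 23.8% and 24.6% in experiments 1, 2 and 3, and with WT TYRO3 23.0%, 27.0% and 24.4%. With dGS TYRO3 it was 25.5%, 25.7% and 1.29%, and with dADAM TYRO3 23.6%, 23.4% and 14.3%. The dGS and dADAM libraries of experiment 3 lay apart. The other 10 libraries lay between 23.0% and 27.0%.

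The share was 24.7% ± 1.04 (SD, n = 3) with GFP and 20.9% ± 8.21 (SD, n = 9) with TYRO3, a difference of -3.82 percentage points, with p = 0.453 in an exact two-sided permutation of the GFP label within experiments (64 arrangements). Without the dGS library of experiment 3 it was -1.81 points (p = 0.604, exact permutation), and without the GFP library of experiment 3, -0.12 points (p = 0.938, exact permutation). In the dGS library of experiment 3 MDM2-225, the main downstream transcript, was at 0 estimated counts, against 71.9 to 775 in the other libraries. That 0 is an estimate, which depends on how reads were divided between overlapping transcripts. The same library had 10.3% of its MDM2 counts in MDM2-231, a fragment of the 3′ end of the gene, and the dADAM library of experiment 3 had 8.32%, against 1.37% to 5.15% in the other 10. The dGS library of experiment 3 also had the lowest mean transcript length weighted by counts, 2978 bases against 3243 to 3500 in the other 11. The part of these measures in the downstream share was not tested.

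**Figure D3:**
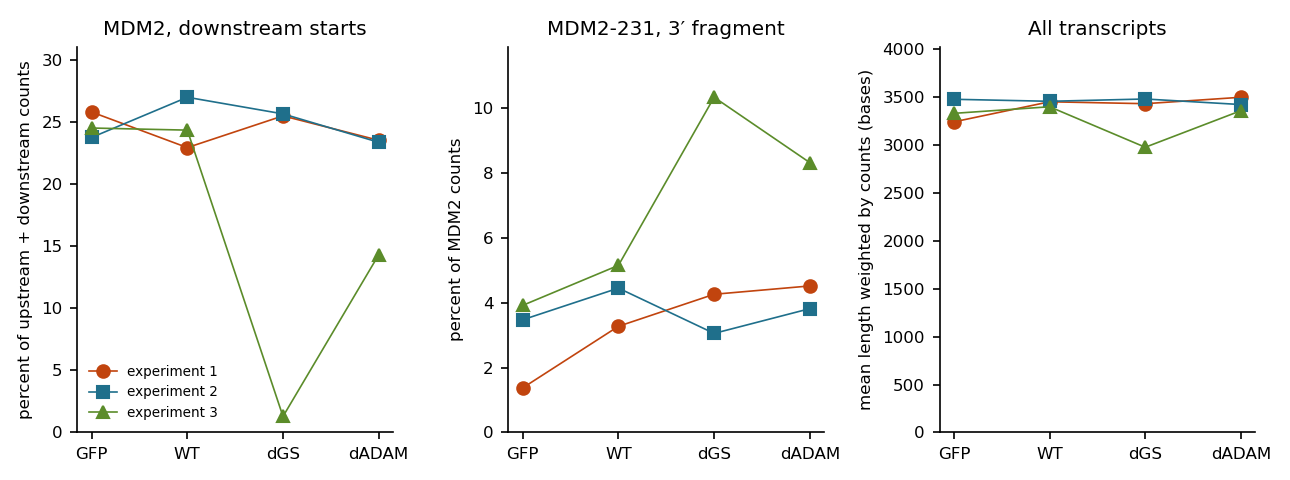
Share of MDM2 counts from downstream starts in percent (left), share of the 3′ fragment MDM2-231 in percent of MDM2 counts (middle) and mean length of all transcripts weighted by counts in bases (right), each for the 4 groups with 1 point per library and lines joining the libraries of an experiment. The dGS library of experiment 3, at 1.29%, 10.3% and 2978 bases, stands apart in all 3 panels.

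The genes that regulate the pathway were counted over all TYRO3 against GFP. Of the 24 genes listed as regulators of p53, 1 (CDKN2A) was called, higher, where 5.68% of all genes tested were called. The median log2 fold change was 0.04 over the list, beside 0.00 over all genes. MDM4, the relative of MDM2 that blocks p53, had a log2 fold change of -0.06 (SE 0.09, adjusted p = 0.731, edgeR), and it was named for its role, after its value was seen.

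TP53INP1 encodes a stress protein that promotes p53 phosphorylation, autophagy and cell death, and lies on chromosome 8 (94925972 to 94949411, minus strand). With GFP it was at 34.2, 44.0 and 28.3 CPM in experiments 1, 2 and 3. With WT TYRO3 it was at 21.7, 28.2 and 21.3 CPM, with dGS TYRO3 at 17.6, 32.2 and 17.8 CPM, and with dADAM TYRO3 at 15.7, 30.2 and 23.4 CPM. It was lower with TYRO3 in all 9 comparisons with the GFP library of the same experiment, and the groups overlapped across experiments, since experiment 2 was high in every group. The mean was 35.5 ± 7.97 CPM (SD, n = 3) with GFP and 23.1 ± 5.90 CPM (SD, n = 9) with TYRO3.

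The log2 fold change of TP53INP1 between all TYRO3 and GFP was -0.61 (SE 0.12, adjusted p = 0.00905, edgeR). It was -0.55 with WT (adjusted p = 0.0707), -0.66 with dGS (adjusted p = 0.0245) and -0.61 with dADAM TYRO3 (adjusted p = 0.0298), from edgeR. The ratio of the TYRO3 mean to the GFP library was 0.54 in experiment 1, 0.69 in experiment 2 and 0.74 in experiment 3. Without the GFP library of experiment 1 the log2 fold change was -0.48 (adjusted p = 0.0671, edgeR). Leaving out the dADAM library of experiment 1, the WT library of experiment 2 or the dGS library of experiment 3 moved it to between -0.57 and -0.55, under the fold threshold, with adjusted p-values of 0.0108 to 0.0210 (edgeR). The call with dGS TYRO3 was lost without the GFP libraries of experiments 1 or 2 or the dGS libraries of experiments 1 or 3 (-0.70 to -0.54, adjusted p from 0.0526 to 0.0942, edgeR). That with dADAM TYRO3 was lost without any of the 3 GFP libraries or the dADAM libraries of experiments 1 or 2 (-0.70 to -0.44, adjusted p from 0.0520 to 0.129, edgeR). TP53INP2, its only relative, which acts in autophagy, fell from 41.8 ± 4.31 CPM (SD, n = 3) to 26.3 ± 6.05 CPM (SD, n = 9), a log2 fold change of -0.67 (SE 0.10, adjusted p = 0.00334, edgeR).

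FAS, the death receptor that binds FAS ligand and starts the caspase cascade, lies on chromosome 10 (88990582 to 89015785, plus strand). The GFP libraries were at 6.58, 6.28 and 4.70 CPM in experiments 1, 2 and 3. With WT TYRO3 it was at 6.92, 10.2 and 6.35 CPM, with dGS TYRO3 at 9.95, 9.29 and 6.996 CPM, and with dADAM TYRO3 at 7.38, 9.41 and 6.37 CPM. Each TYRO3 library was above the GFP library of its experiment, by the least in the WT library of experiment 1. The log2 fold change was 0.62 with dGS TYRO3 (SE 0.15, adjusted p = 0.0319, edgeR), 0.44 with WT (adjusted p = 0.123, edgeR) and 0.43 with dADAM TYRO3 (adjusted p = 0.0930, edgeR). The call with dGS TYRO3 was lost without any of the 3 GFP libraries, the dGS libraries of experiments 1 or 2 or the dADAM library of experiment 1 (0.51 to 0.72, adjusted p from 0.0533 to 0.118, edgeR). Over all TYRO3 FAS was at 0.50 (SE 0.13, adjusted p = 0.0266, edgeR), under the fold threshold.

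FAS counts were spread over transcripts that do not all encode the receptor. FAS-220, a processed transcript with no annotated coding sequence, held 0% to 43.8% of the FAS counts of a library, the most in the dGS library of experiment 3. From protein-coding transcripts alone the log2 fold change over all TYRO3 was 0.30 (adjusted p = 0.510, edgeR), and the call with dGS TYRO3 was lost. Of the 11 other genes of the death receptor pathway that were tested, 0 were called over all TYRO3, beside 5.68% of all genes. Their median log2 fold change was 0.14. TNFRSF1A, the first receptor for tumour necrosis factor, stood at 0.56 over all TYRO3 (SE 0.11, adjusted p = 0.00755, edgeR) and was called higher with dADAM TYRO3 alone. FASLG, the gene of FAS ligand, was below the filter.

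ZMAT3, an RNA-binding protein that acts in splicing and in tumour suppression by p53, lies on chromosome 3 (179017223 to 179072279, minus strand). In the GFP libraries ZMAT3 was at 30.5, 27.8 and 29.7 CPM in experiments 1, 2 and 3. With WT TYRO3 it was at 24.6, 19.01 and 25.7 CPM, with dGS TYRO3 at 25.01, 18.5 and 19.2 CPM, and with dADAM TYRO3 at 24.9, 18.6 and 26.5 CPM. The groups did not overlap, since the highest TYRO3 library, at 26.5 CPM, was below the lowest GFP library. How many of all genes separated in this way was not counted. The GFP library was the highest within every experiment for 13.8% of all genes. Over all TYRO3 the log2 fold change was -0.41 (SE 0.09, adjusted p = 0.0155, edgeR), under the fold threshold. The difference depended on the unit. On TPM the GFP library of experiment 1, at 4.50, was below the 3 TYRO3 libraries of its experiment, at 5.23 to 5.53, and the log2 fold change from limma on log2(TPM + 1) was -0.18 (adjusted p = 0.455).

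SESN1 encodes sestrin 1, which lowers oxidative stress and inhibits the growth kinase mTORC1, and lies on chromosome 6 (108986437 to 109094819, minus strand). With GFP, SESN1 was at 14.5, 19.7 and 18.6 CPM in experiments 1, 2 and 3. With WT TYRO3 it was at 10.9, 18.4 and 15.7 CPM, with dGS TYRO3 at 11.0, 15.2 and 12.3 CPM, and with dADAM TYRO3 at 12.2, 17.4 and 12.2 CPM. Each TYRO3 library was below the GFP library of its experiment, and the groups overlapped across experiments. SESN1 had a log2 fold change of -0.34 over all TYRO3 (SE 0.10, adjusted p = 0.0364, edgeR) and -0.45 with dGS TYRO3 (SE 0.12, adjusted p = 0.0404, edgeR), both under the fold threshold. On log2(TPM + 1) it was -0.11 over all TYRO3 (adjusted p = 0.630, limma). Most of its counts fell to a pair of transcripts, SESN1-204 from the far upstream start with a median share of 54.4% of the counts and SESN1-202 with 42.3%.

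The values of the other sestrins were set beside those of SESN1. SESN3 fell from 37.1 ± 9.10 CPM (SD, n = 3) to 14.9 ± 6.10 CPM (SD, n = 9), a log2 fold change of -1.35 (SE 0.16, adjusted p = 0.00106, edgeR), and was called in each TYRO3 group. SESN2, also a target of the stress factor ATF4, had a log2 fold change of 1.12 (SE 0.39, adjusted p = 0.0772, edgeR), and it was named after its value was seen.

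FDXR, ferredoxin reductase, passes electrons to mitochondrial cytochromes and iron-sulphur assembly, and lies on chromosome 17 (74862497 to 74873031, minus strand). It was at 8.19 to 10.8 CPM in the 3 GFP libraries and 8.21 to 11.5 CPM in the 9 TYRO3 libraries, with medians of 9.38 and 8.89 CPM. The ranges overlapped, and the experiments differed in direction, with the TYRO3 mean at 0.80 of the GFP library in experiment 1 and 1.18 of it in experiment 3. FDXR had a log2 fold change over all TYRO3 of -0.02 (SE 0.13, adjusted p = 0.951, edgeR), with a 95% confidence interval of -0.30 to 0.26. Its electron acceptors FDX1 and FDX2 had log2 fold changes of 0.03 and 0.01 (adjusted p = 0.844 and 0.974, edgeR).

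RRM2B encodes the subunit of ribonucleotide reductase that makes nucleotides for DNA repair outside S phase, and lies on chromosome 8 (102204502 to 102239118, minus strand). The GFP libraries were at 40.8, 55.8 and 48.8 CPM in experiments 1, 2 and 3, and the 9 TYRO3 libraries between 45.9 and 61.2 CPM with a median of 55.0. The ranges overlapped. RRM2B had a log2 fold change over all TYRO3 of 0.13 (SE 0.11, adjusted p = 0.441, edgeR), with a 95% confidence interval of -0.10 to 0.37. The S phase subunits RRM1 and RRM2 had log2 fold changes of -0.24 (SE 0.06, adjusted p = 0.0196) and 0.16 (SE 0.11, adjusted p = 0.345), neither called by edgeR.

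XPC, the protein that finds bulky lesions for nucleotide excision repair, is encoded on chromosome 3 (14145147 to 14178783, minus strand). The GFP libraries were at 32.4, 35.6 and 33.4 CPM in experiments 1, 2 and 3, and the 9 TYRO3 libraries between 34.4 and 40.4 CPM with a median of 37.3. The WT library of experiment 2 was below its GFP library, and the other 8 TYRO3 libraries were above theirs. The log2 fold change over all TYRO3 was 0.13 (SE 0.07, adjusted p = 0.233, edgeR), with a 95% confidence interval of -0.02 to 0.29. Of the 15 other genes of nucleotide excision repair, 0 were called over all TYRO3 by edgeR, where 5.68% of all genes tested were called. Their median log2 fold change was -0.03. RAD23B, a partner of XPC, stood at -0.21 (SE 0.06, adjusted p = 0.0438, edgeR) and RPA1, which binds single-stranded DNA, at -0.06 (SE 0.05, adjusted p = 0.501, edgeR).

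Whether the cleavage of TYRO3 altered the p53 targets was read from the constructs themselves. WT TYRO3 against the mean of dGS and dADAM TYRO3 called 0 of the 9 genes with edgeR, 0 with DESeq2 and 0 with limma, and none had an unadjusted p under 0.05. Over all genes edgeR called 0% (0 of 15098, with 237, or 1.57%, at an unadjusted p under 0.05, and 5, or 0.0331%, called by DESeq2). dGS against dADAM TYRO3 likewise called 0 of the 9 genes with each of the 3 tools, and edgeR called 0% of all genes (0 of 15098, with 216 at an unadjusted p under 0.05, and 1, or 0.00662%, called by DESeq2). Between WT and the mean of the 2 variants, the log2 fold changes of the 9 genes lay between -0.15 (CDKN1A) and 0.15 (SESN1). Between dGS and dADAM TYRO3 they lay between -0.16 (ZMAT3) and 0.19 (FAS).

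The precision of these 2 comparisons differed between genes. The 95% confidence interval of WT against the mean of the variants was -0.60 to 0.29 for CDKN1A, and -0.17 to 0.09 for MDM2. For dGS against dADAM TYRO3 it was -0.53 to 0.47 for CDKN1A, -0.37 to 0.27 for TP53INP1 and -0.12 to 0.49 for FAS. Only the interval of CDKN1A for WT against the variants reached a 1.5-fold difference, on its lower side. The mean levels of CDKN1A were 48.1 ± 16.5 CPM with WT, 52.1 ± 2.51 CPM with dGS and 53.03 ± 5.16 CPM with dADAM TYRO3 (SD, n = 3 in each group), so that the order of the 3 constructs was within the spread of the WT libraries. For TP53INP1 the means were 23.7 ± 3.87, 22.5 ± 8.38 and 23.1 ± 7.27 CPM in the same order (SD, n = 3 in each group), again within the spread.

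**Figure D4:**
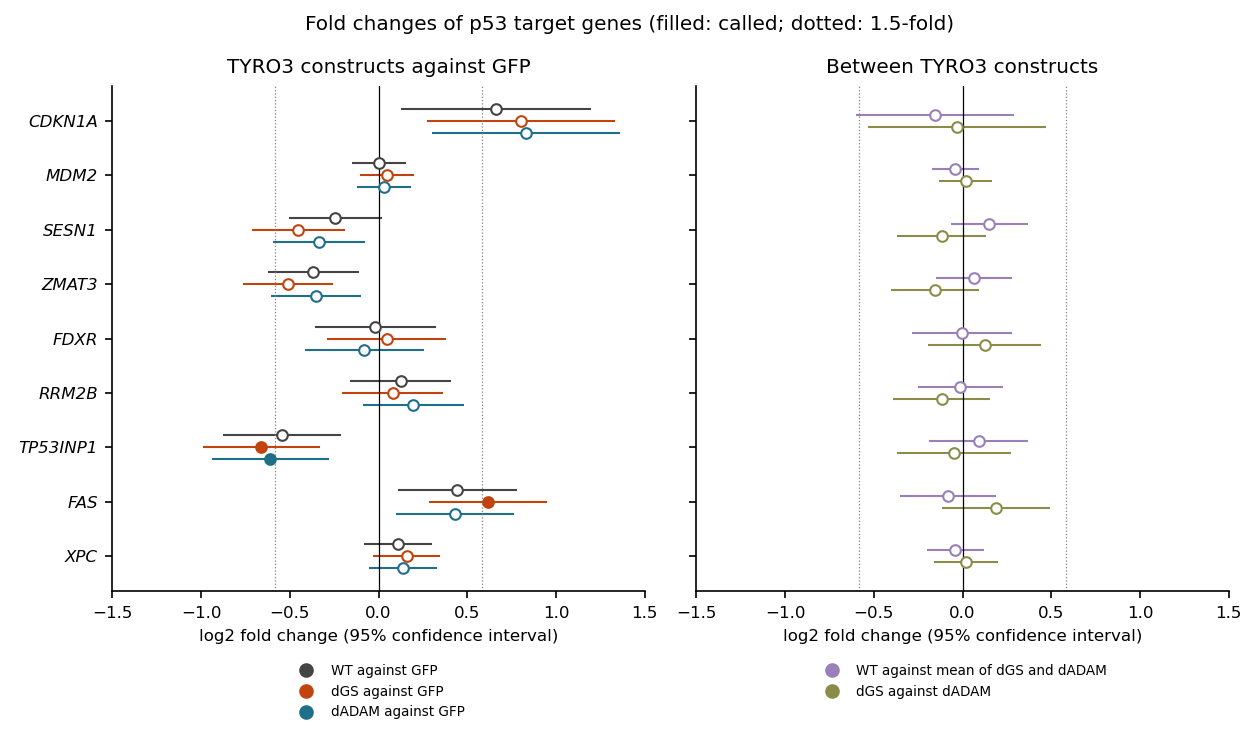
Log2 fold change of each p53 target gene with its 95% confidence interval (horizontal axis, genes on the vertical axis), for each TYRO3 construct against GFP (left) and between the constructs (right), with filled points for called genes and dotted lines at a 1.5-fold change. TP53INP1 with dGS and dADAM and FAS with dGS TYRO3 are the filled points, and all points on the right lie between -0.16 and 0.19.

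A wider list of 43 other p53 targets had 38 members that passed the filter. Over all TYRO3, 3 were called higher and 1 lower, where 5.68% of all genes tested were called. The median log2 fold change was 0.06. PMAIP1, which encodes the death protein NOXA, rose from 78.1 ± 5.86 CPM (SD, n = 3) to 152.9 ± 46.5 CPM (SD, n = 9), a log2 fold change of 0.87 (SE 0.18, adjusted p = 0.0104, edgeR). GDF15, a secreted stress cytokine, rose by a log2 fold change of 0.97 (SE 0.25, adjusted p = 0.0246, edgeR). It also belongs to the integrated stress response list below and is counted in both lists. BCL2L1, the gene of the survival protein BCL-XL, rose by 0.62 (SE 0.11, adjusted p = 0.00503, edgeR). CCNG1, cyclin G1, which acts with MDM2, fell from 179.1 ± 5.20 CPM (SD, n = 3) to 112.4 ± 27.4 CPM (SD, n = 9), a log2 fold change of -0.71 (SE 0.12, adjusted p = 0.00516, edgeR). Such widely used p53 targets as BAX and BBC3 (PUMA), which promote cell death, had log2 fold changes of 0.00 (SE 0.09, adjusted p = 0.987) and 0.23 (SE 0.25, adjusted p = 0.583) with edgeR, and they were named after their values were seen.

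**Figure D5:**
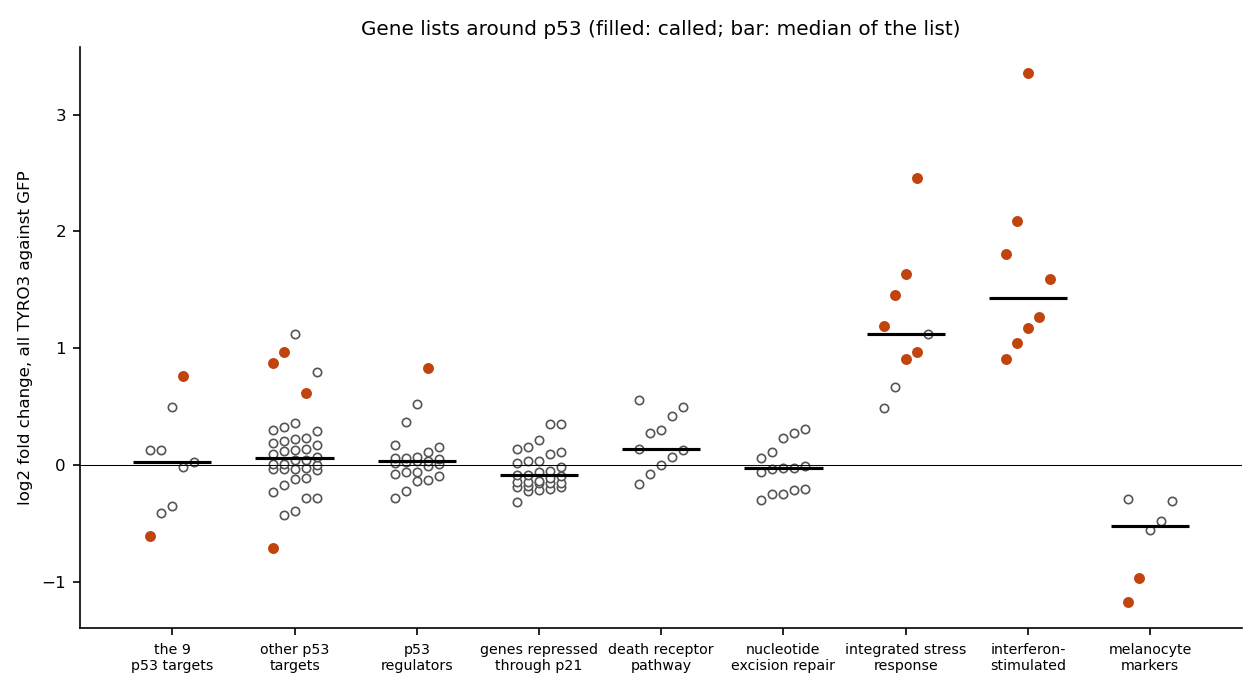
Log2 fold change between all TYRO3 and GFP (vertical axis) for each tested gene of 9 lists (horizontal axis), with filled points for called genes and a bar at the median of the list. The 9 p53 targets, the other p53 targets, the p53 regulators, the genes repressed through p21 and the repair genes have medians between -0.08 and 0.06, and the integrated stress response and interferon-stimulated lists have medians of 1.12 and 1.43.

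Genes of other stress programs moved in the same libraries, where 5.68% of all genes tested were called over all TYRO3. In the integrated stress response, in which ATF4 answers to amino acid shortage and misfolded protein, 6 of 9 genes were called higher over all TYRO3 and 0 lower. They included the asparagine synthetase gene ASNS (log2 fold change 1.64, SE 0.15, adjusted p = 0.000468, edgeR), CHAC1, which degrades glutathione (2.46, SE 0.49, adjusted p = 0.00883, edgeR), and the factors ATF4 (0.91, adjusted p = 0.00906) and ATF3 (1.46, adjusted p = 0.0170). Its summed level was 427.5 to 654 TPM in the 3 GFP libraries and 706 to 2040 TPM in the 9 TYRO3 libraries. All 8 interferon-stimulated genes tested were called higher, with OAS1 at 3.35 (SE 0.27, adjusted p = 0.000173, edgeR), IFIT1 at 1.81, IRF1 at 1.59 and IFIT2 at 1.27, and a summed level of 195 to 479 TPM with GFP and 444 to 1570 TPM with TYRO3. Of 6 melanocyte genes, 2 were called lower, the melanocyte master regulator MITF at -0.96 (SE 0.17, adjusted p = 0.00581, edgeR) and the pigment gene DCT at -1.17 (SE 0.23, adjusted p = 0.00863, edgeR). With WT TYRO3 alone, 1 of the 9 integrated stress response genes was called, beside 2.35% of all genes. In that comparison all 8 interferon-stimulated genes and 0 of the 6 melanocyte genes were called. These lists moved between the same groups as CDKN1A, FAS and TP53INP1, and their part in those differences was not tested.

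Per length, MDM2 was the highest of the 9 genes, at 62.7 ± 7.10 TPM (SD, n = 12). CDKN1A followed at 34.2 ± 11.2 TPM, RRM2B at 23.5 ± 3.82 TPM and XPC at 18.2 ± 2.51 TPM (SD, n = 12). The other 5, SESN1, FDXR, FAS, TP53INP1 and ZMAT3, had means of 8.85, 8.68, 7.20, 7.18 and 4.78 TPM, and SESN1 and FDXR, like FAS and TP53INP1, differed by less than their spread. Over the 9 genes, 27 of the 112 transcripts in the files reached a mean of 1 TPM.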

How the data were processed

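Libraries were prepared by the authors with a stranded polyadenylated RNA kit and read in pairs of 75 bases. Per the labels and methods, the authors trimmed the reads with Trimmomatic 0.33 and PRINSEQ and assigned them to the transcripts of Ensembl 96 (GRCh38) with kallisto 0.46.0. The deposited files hold, for each library, an estimated count and a TPM value per transcript, and were deposited before the batch correction and normalization of the study. kallisto divides reads between overlapping transcripts, so that shares of transcripts are estimates.

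Here the estimated counts of 169797 of 188753 transcripts, matched to GENCODE 29 by identifier without version, were summed to 35579 genes, and 18956 transcripts without a match were left out. The sums were rounded and tested with edgeR 4.0.16 (R 4.3.3, TMM scaling, and filterByExpr at 10 counts and a total of 15) in 1 model of 12 libraries with terms for group and experiment. The fold threshold of 1.5 and the adjusted p of 0.05 follow the study, which used DESeq2. Confidence intervals used the total degrees of freedom of the fit. The replicate numbers mark a shared experiment per the labels and were used to pair the samples. Deviations from the group means correlated positively between libraries of 1 experiment (r from 0.136 to 0.661 over 18 pairs). Between experiments r lay from -0.495 to 0.033 over 36 pairs. The deviations of the 3 libraries of a group sum to 0, which by itself pushes r between experiments down where libraries of 1 experiment move together. On simulated counts for WT against GFP with 14888 genes, 87 of 100 genes changed 2-fold and 94 of 100 changed 4-fold were called, with 11 false calls. The simulation held no differences between experiments and changed only genes above a minimum mean count. It does not show how often changes near 1.5-fold would be called.

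The alternatives were DESeq2 1.42.0, size factors of DESeq2's type, limma 3.58.1 on log2 TPM, other filters, no experiment term, experiments 2 and 3 alone, fewer groups, protein-coding transcripts alone, no fold threshold and each library left out. One alternative for MDM2 was chosen after seeing the data. The members and lists were chosen with earlier results of these data known. Genes named were TYRO3, the 9 members, up to 4 called genes per list by smallest p over all TYRO3 (the 2 of highest TPM where none was called), the 5 genes most like CDKN1A, and genes said to be named after their values were seen, and 1 further gene of the rule is not reported here. Of these, the keratin gene KRT18 and PECAM1 gave log2 fold changes of 0.37 and 0.02, neither called by edgeR. Python 3.11.15, numpy 2.4.6, pandas 2.3.3 and matplotlib 3.10.9 made the tables and figures.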

Additional observations from a re-analysis of the deposited data

How the results depend on the processing

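The number of p53 target genes called depended on the GFP library of experiment 1 and on the experiment term. Without that library 0 were called in any comparison with GFP. Over all genes that fit called 148 of 15328 with WT, 269 with dGS, 288 with dADAM and 384 over all TYRO3. Over the fits without 1 library, dGS TYRO3 gave 0 to 3 calls, dADAM TYRO3 0 to 2 and all TYRO3 0 to 2, and WT TYRO3 and the comparisons between constructs gave 0 throughout. With no replicate block, 0 members were called over all TYRO3, with dGS and with dADAM TYRO3, both with a term for experiment 1 alone and with no batch term. In the same order of comparisons, the term for experiment 1 left 500, 69 and 168 of all 15098 genes called. No batch term left 19, 4 and 5. Experiments 2 and 3 alone also gave 0 members in these 3 comparisons, with fewer libraries, beside 324, 189 and 218 of 14960 genes. Limma on log2 TPM gave 0 with dGS and 0 with dADAM TYRO3 and 1 over all TYRO3 at either pseudocount, which was CDKN1A at 1 (adjusted p = 0.0477) and FAS at 0.1 (adjusted p = 0.0436), where CDKN1A had an adjusted p of 0.0623, and TP53INP1 was called at neither. Over all TYRO3, limma called 643 of 13560 genes at a pseudocount of 1 and 646 at 0.1. At these pseudocounts it called 238 and 146 of the 13560 genes with dGS TYRO3, and 355 and 245 with dADAM TYRO3. DESeq2 called 1 member with WT, 3 with dGS and 2 with dADAM TYRO3, beside 610, 830 and 875 of all 15098 genes. With dADAM TYRO3, size factors of DESeq2's type gave 2, no filter 2 and at least 10 counts in every library 2, where the added gene was CDKN1A. In the same order these settings called 781 of 15098, 915 of 25269 and 630 of 11881 genes. With no fold threshold, 4 members passed with dGS TYRO3 and 5 over all TYRO3, beside 1352 and 2390 of all 15098 genes. Protein-coding transcripts alone gave 1 with dGS TYRO3 (568 of 13517 genes called), as did a fit of only the groups compared (469 of 14527 genes called). The causes of these changes were not tested. Of all genes, 355 were called with WT, 708 with dGS, 784 with dADAM and 857 over all TYRO3, against 3 to 610, 4 to 1352, 5 to 1537 and 19 to 2390 over the same alternatives, the lowest with no replicate block and no batch term. Without 1 library the counts were 79 to 606, 269 to 777, 198 to 870 and 384 to 974. Values for the genes of the wider lists were taken from the edgeR model with the experiment term alone.

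No called gene changed direction in the alternatives run, and the changes of sign were in log2 fold changes that were not called. MDM2 was at -0.0430 and -0.0435 with WT and -0.0059 and -0.0059 over all TYRO3 with limma at pseudocounts of 1 and 0.1, at -0.013 with WT TYRO3 from protein-coding transcripts and at -0.0031 between dGS and dADAM TYRO3 in experiments 2 and 3 alone. FDXR was at 0.067 with WT and 0.087 over all TYRO3 in experiments 2 and 3 alone, at 0.0018 over all TYRO3 with at least 10 counts in every library, and with dGS TYRO3 at -0.0276 and -0.0284 with limma and -0.084 from protein-coding transcripts. RRM2B was at -0.0040 with WT TYRO3 in experiments 2 and 3 alone, at -0.22 and -0.23 with dGS TYRO3 with limma, and at 0.117 and 0.123 for WT against the mean of the variants with limma. In that last comparison TP53INP1 was at -0.051 and FAS at 0.026 in experiments 2 and 3 alone, and FAS at 0.052 from protein-coding transcripts. Between dGS and dADAM TYRO3, protein-coding transcripts gave -0.044 for FAS and -0.091 for XPC.

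Over the fits without 1 library, the log2 fold changes that changed sign had these ranges against GFP. MDM2 ranged from -0.043 to 0.028 with WT TYRO3. FDXR ranged from -0.16 to 0.082 with WT, -0.14 to 0.16 with dGS, -0.22 to 0.029 with dADAM and -0.16 to 0.085 over all TYRO3, and RRM2B from -0.028 to 0.21 with dGS TYRO3. For WT against the mean of the variants the ranges were -0.46 to 0.057 for CDKN1A, the former without the WT library of experiment 1, -0.0034 to 0.11 for ZMAT3, -0.062 to 0.089 for FDXR, -0.11 to 0.0997 for RRM2B, -0.20 to 0.038 for FAS and -0.11 to 0.020 for XPC. Between dGS and dADAM TYRO3 they were -0.15 to 0.10 for CDKN1A, -0.024 to 0.047 for MDM2, -0.058 to 0.25 for FDXR, -0.22 to 0.11 for TP53INP1 and -0.037 to 0.065 for XPC.

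The difference in the MDM2 downstream share kept its sign in every alternative run and ranged from -6.52 to -0.12 percentage points without 1 library. Without a GFP library the 16 arrangements left give no exact permutation p below 0.0625, so that those 3 fits could not pass the threshold. It was -8.98 points by TPM, -3.42 from protein-coding transcripts and -2.42 without the transcripts that start at or after the exon of the start codon (chosen after seeing the data), and had p = 0.50 in an exact permutation with no replicate block. The GFP library of experiment 1, with 4008293 counts, limits the precision of the low genes FAS and FDXR most.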

Other observations

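The transcripts behind several genes were divided unevenly between libraries. TP53INP1-201 held 24.9% to 100% of the TP53INP1 counts of a library, with a median of 41.6%, and TP53INP1-202, which starts 45 bases away, held the rest. FDXR-201 held between 0% and 75.2% of the FDXR counts, and FDXR-208, which retains an intron, between 2.25% and 31.2%. In XPC and RRM2B the main transcripts XPC-201 and RRM2B-201 held medians of 90.0% and 90.0% of the counts. ZMAT3-201, of 8936 bases, held 87.5% to 100% of the ZMAT3 counts.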
